A study of Homo sapiens with 9 samples.

Results

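SF3B4 sites were taken from the 3 SF3B4 libraries of the 10plex ABC experiment in K562 cells, 1 library per replicate. ABC, antibody-barcode eCLIP, maps where an RNA-binding protein (RBP) was crosslinked to RNA by UV light: the RNA bound by an antibody receives the barcode of that antibody, so that 10 RBPs can be read from 1 tube. The members are all merged SF3B4 peaks, 18034 in replicate 1, 35259 in replicate 2 and 13340 in replicate 3. These 66633 regions are part of 2478204 in the 54 merged peak lists of the 9 samples of the series. SF3B4 was compared with the other 9 RBPs of the same tubes (DDX3, EIF3G, FAM120A, IGF2BP2, LIN28B, PRPF8, PUM2, RBFOX2 and ZC3H11A), which together held 682223 merged peaks. All 3 samples were untreated cells of K562, an established human erythroid leukaemia line, with no genetic change in the labels. The source label of replicate 3 spells the line K563 while its title reads K562. All 11 erythroid genes looked at held peaks in each of the 3 replicates over the 10 libraries together, and 6 of 9 genes of other blood or kidney cells held none. LYZ and PAX2, which K562 cells were taken to lack, had 3 to 38 reads in peaks per replicate. The labels do not say whether the replicates came from separate cultures, so errors measure the spread between these samples, which may be technical.

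SF3B4 is a subunit of SF3b, the part of U2 snRNP that holds the branch site of an intron. The branch site lies shortly upstream of the 3′ splice site, and the branch adenosine attacks the 5′ splice site in the first step of splicing. SF3b is also part of the U11/U12 snRNP of the minor spliceosome, which removes the rare U12-type introns. PRPF8, the U5 snRNP protein at the heart of the spliceosome, served as the nearest comparison within the tubes.

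The introns below are shown because SF3B4 marked them in all 3 replicates and because they differ in where the peak lay relative to the branch motif. Each sequence is the 3′ end of the intron on GRCh38, 5′ to 3′ and ending at the last intron base. Capitals mark CTNAC, the core of the branch motif, searched on the transcribed strand, where it starts 18 to 45 nt upstream of the exon. The OSBPL9 stretch is chr1:51785748-51785807 (plus strand, intron 20 of 23), HNRNPH1 is chr5:179616959-179617018 (minus, intron 10 of 13), TFRC is chr3:196062940-196062999 (minus, intron 11 of 18), SNRPA1 is chr15:101285802-101285901 (minus, intron 6 of 8) and RPS25 is chr11:119015940-119015999 (minus, intron 3 of 4). All of them interrupt the coding sequence.
OSBPL9: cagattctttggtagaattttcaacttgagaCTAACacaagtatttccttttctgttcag
HNRNPH1: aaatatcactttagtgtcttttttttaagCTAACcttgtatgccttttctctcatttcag
TFRC: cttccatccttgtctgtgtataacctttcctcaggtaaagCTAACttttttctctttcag
SNRPA1: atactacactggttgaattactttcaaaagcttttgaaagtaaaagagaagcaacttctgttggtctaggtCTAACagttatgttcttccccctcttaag
RPS25: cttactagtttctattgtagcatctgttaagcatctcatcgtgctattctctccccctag
In HNRNPH1 the motif started 31 nt upstream of the exon and the peak centres lay 26, 34 and 30 nt upstream in replicates 1, 2 and 3. In OSBPL9 the motif started at 29 nt and the centres lay at 26, 25 and 36 nt. In TFRC the motif started at 20 nt and the centres lay at 8, 15 and 34 nt, so here the replicates were far apart. In SNRPA1 the motif started at 29 nt but the peaks were centred 78, 90 and 91 nt upstream, well before it. RPS25 had no CTNAC in this range and was centred at 23, 18 and 29 nt.

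The 3 U12-type introns below were found by their first bases (ATATCCTT or GTATCCTT), and their 3′ ends are shown because SF3B4 marked them in at least 2 replicates and close to the exon. Capitals mark TTAAC, the core of the branch motif of this class, where it starts 6 to 40 nt upstream of the exon. They lie in EIF3I (chr1:32224350-32224409, plus, intron 3 of 10), ZCCHC8 (chr12:122498870-122498929, minus, intron 1 of 13) and RNF121 (chr11:71996135-71996194, plus, intron 8 of 8).
EIF3I: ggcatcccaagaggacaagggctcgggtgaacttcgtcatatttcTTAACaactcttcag
ZCCHC8: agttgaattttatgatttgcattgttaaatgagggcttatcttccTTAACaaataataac
RNF121: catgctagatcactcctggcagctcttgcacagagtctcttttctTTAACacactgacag

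The reads in merged SF3B4 peaks summed to 275669, 483995 and 188025 in replicates 1, 2 and 3, where a read in touching peaks counts in each. SF3B4 held 9.03%, 9.73% and 5.81% of the pool. A peak was called enriched when P was below 0.001 and its reads were more than 8-fold over the complement control (CC), which pools the reads of the remaining 9 RBPs in the tube. SF3B4 had 3992, 9367 and 5232 enriched peaks, a mean of 6197 ± 2814 (SD, n = 3), which was 25.2%, 29.5% and 39.1% of the peaks with a CC value. The depth of single sites was low. The median enriched peak held 4 reads in replicate 1, 5 in replicate 2 and 5 in replicate 3, and 43.2%, 36.5% and 40.3% of them had at most 1 CC read, for which the fold was computed over 1 read. Such folds depend on that floor, and intervals given here cover counting error only. Peaks in repeats were absent from the CC lists of replicates 1 and 2 but not from that of replicate 3.

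Enriched SF3B4 peaks lay at the ends of introns. Of all enriched peaks, 66.5%, 75.1% and 77.5% in replicates 1, 2 and 3 had their centre in the last 100 nt of an intron of a canonical protein-coding transcript, or in its nearer part where the intron was under 200 nt. The 27 libraries of the other RBPs had between 0% and 3.05% there, with a mean of 0.886%. All 3 SF3B4 libraries stood above all others, and the difference of 72.2 percentage points had p = 0.001 in a two-sided exact permutation test of the RBP labels within replicates. This is the smallest p that the 1000 choices allow, and 0.011 after Benjamini-Hochberg correction over 11 tests. In this test the replicate libraries of 1 RBP count as separate units. The CC of each other RBP holds the SF3B4 reads, which counts against calling SF3B4 sites for that RBP. The shares compared here are therefore not independent, and the filter itself favours a difference between them. Over the external background, the SF3B4 shares fell to 31.5%, 44.3% and 48.2% and the difference to 40.1 points, with the same p. At the first 100 nt of introns SF3B4 had 2.71%, 2.17% and 1.03% of its enriched peaks, where PRPF8 had 74.0%, 75.2% and 79.3%. Against all other RBPs the difference of SF3B4 at 5′ splice sites was -7.96 points (exact permutation p = 0.746, adjusted p = 0.746).

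**Figure D1:**
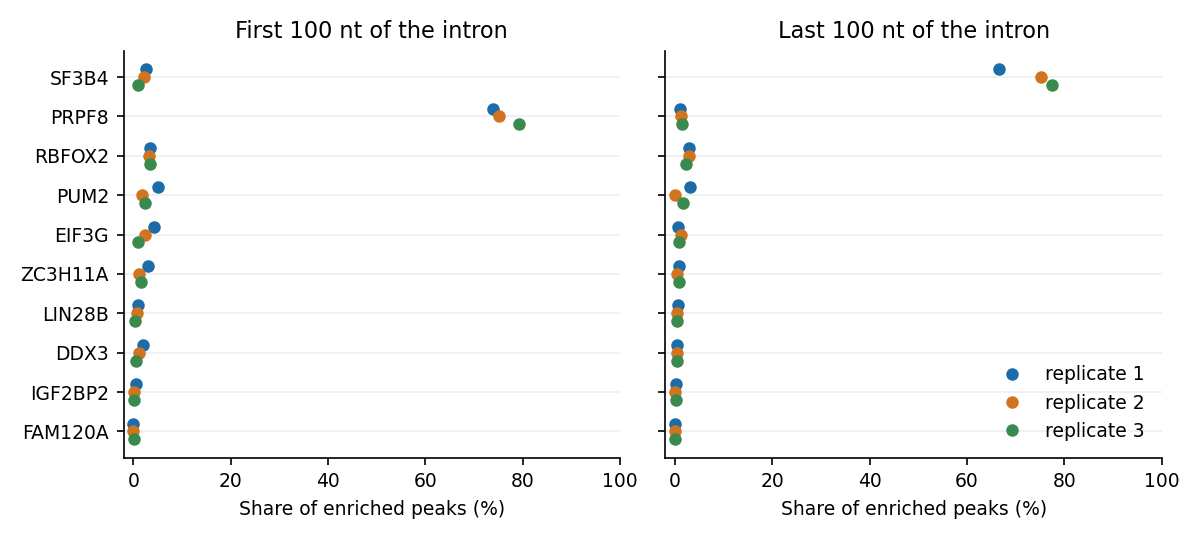
Share of the enriched peaks of each library (x axis, percent) whose centre lay in the first 100 nt (left) or the last 100 nt (right) of an intron, for the 10 RBPs of 10plex ABC in K562 cells, with 1 point per replicate. SF3B4 sits between 66.5% and 77.5% at the intron end and PRPF8 between 74.0% and 79.3% at its start, and every other RBP stays at or below 5.08% on both sides.

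The enriched SF3B4 peaks outside canonical 3′ splice sites were mostly still within genes. The last 100 nt of an intron of another annotated transcript held 4.79% ± 1.09 of enriched peaks (SD, n = 3), and deeper intron sequence held 10.1% ± 1.29. The first 50 nt of the exon that follows an intron held 7.26%, 4.95% and 0.822% in replicates 1, 2 and 3, and the remaining exon sequence held 6.31%, 3.18% and 1.03%. Replicate 1 thus had the highest share of exonic peaks and replicate 3 the lowest. Genes without a canonical coding transcript at the site held 2.31% ± 0.337, and only 1 peak of replicate 2 lay outside any annotated gene.

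The position of the peaks before the exon also differed between replicates. The median centre at 3′ splice sites lay 27 nt upstream of the exon in replicate 1, over 2653 peaks. It lay 30 nt upstream in replicate 2, over 7036 peaks, and 35 nt upstream in replicate 3, over 4057 peaks. The quartiles were 18 to 36 nt, 21 to 39 nt and 29 to 42 nt. Enriched peaks had a median width of 43, 45 and 38 nt, so the replicate with the narrowest peaks was also the one with the most upstream centres. Centres are not crosslink positions, and the part of peak width in this shift was not tested. Among the other RBPs only 8 libraries (3 each of PRPF8 and RBFOX2, 2 of LIN28B) had at least 20 peaks at 3′ splice sites, and their medians ran from 22 to 71.5 nt. PRPF8 had medians of 41.5, 23.5 and 22 nt in replicates 1, 2 and 3, nearer the exon than SF3B4 in replicates 2 and 3. RBFOX2 had 71.5, 64 and 62 nt, and LIN28B had 59 and 64 nt in replicates 1 and 2. The difference of SF3B4 from the 8 libraries, -20.3 nt, had p = 0.188 in the exact permutation test (48 choices, adjusted p = 0.412). When peaks were called over the external background instead, which brings in all 27 other libraries, the difference was -44.4 nt (adjusted exact permutation p = 0.0275). With a window of 50 nt its sign turned, to 6.25 nt over 6 other libraries. Such a window cannot hold the medians of RBFOX2 and LIN28B given above, which lay beyond 50 nt.

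**Figure D2:**
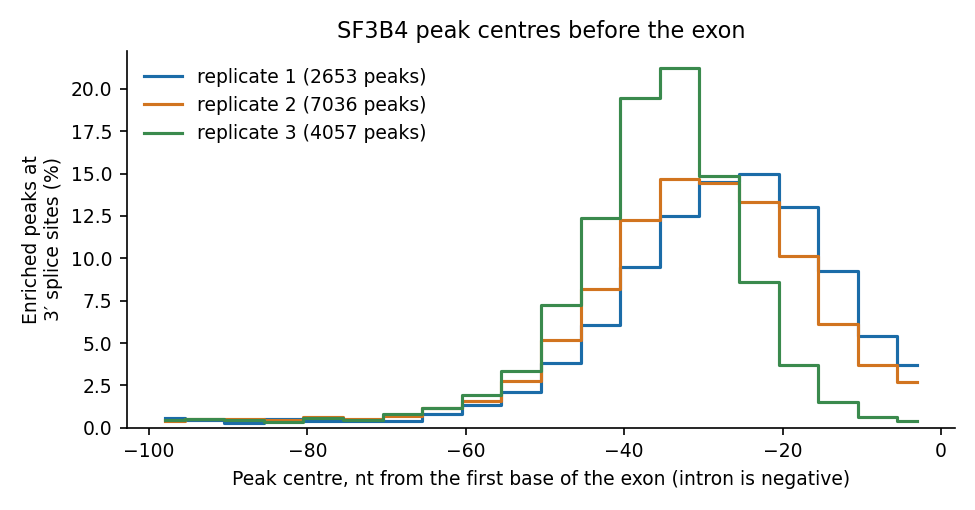
Share of the enriched SF3B4 peaks at 3′ splice sites (y axis, percent) by the position of the peak centre relative to the exon (x axis, nt, intron bases negative) in bins of 5 nt, for the 3 replicates. Centres gather within about the last 50 nt of the intron, with medians of 27, 30 and 35 nt upstream in replicates 1, 2 and 3.

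An intron was called marked when the centre of at least 1 enriched SF3B4 peak lay in its last 100 nt. SF3B4 marked 2627 introns of 1933 genes in replicate 1, 6980 introns of 3626 genes in replicate 2 and 4024 introns of 2510 genes in replicate 3. These were 3.96%, 8.05% and 6.62% of the introns of genes that held any merged SF3B4 peak. To keep apart the intron from the abundance of its transcript, each marked intron was set against the unmarked introns of the same gene, and the same was done in the 8 libraries of other RBPs that marked at least 20 introns. The CC of those libraries holds the SF3B4 reads, so introns with many SF3B4 reads tend to stay among their unmarked introns. Comparisons of intron features with them are therefore not independent of the filter.

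By rank, SF3B4 marked introns along the whole transcript. First introns made up 8.61%, 6.61% and 8.57% of marked introns in replicates 1, 2 and 3 and 9.19%, 8.50% and 8.80% of unmarked introns of the same genes, a mean difference of -0.901 ± 0.879 percentage points (SD, n = 3). Last introns made up 7.35%, 6.61% and 7.20% of marked and 9.52%, 8.53% and 9.23% of unmarked introns, a difference of -2.04 ± 0.123 points that lay below 0 in each replicate. Against all unmarked introns of genes with a merged peak, not paired by gene, these SF3B4 differences were 0.617 points for first introns, with the sign turned, and -0.255 points for last introns. Neither difference was set apart from the other RBPs (exact permutation p = 0.312 and 0.375, adjusted p = 0.491 and 0.516). Introns of rank 10 or more were marked in 3.16%, 7.41% and 5.11% of cases and introns of rank 4 to 9 in 4.47%, 8.995% and 7.74%, where genes with many introns weigh more in the former class.

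Marked introns were longer than their neighbours. Their length exceeded that of the unmarked introns of the same gene by 0.31, 0.32 and 0.37 on the log2 scale, a mean of 0.33 ± 0.03 (SD, n = 3). Introns under 200 nt made up 11.1%, 7.68% and 8.30% of marked introns and 16.8%, 13.2% and 14.7% of unmarked ones. Introns under 100 nt, for which only the nearer part could be marked, were marked in 2.23%, 4.11% and 2.43% of cases. The share rose to 4.48%, 9.27% and 7.71% for introns of 1000 to under 5000 nt, was 4.11%, 9.70% and 8.07% from there to under 20000 nt, and was 2.99%, 6.496% and 4.95% for introns of 20000 nt or more, so the longest class was not the most often marked. Introns marked by PRPF8 differed in log2 length from their unmarked neighbours by -0.46, -0.88 and -0.98. Those of RBFOX2 differed by 0.15, 0.11 and 0.15, and those of LIN28B by -0.44 and 0.19 in replicates 1 and 2. The length difference of SF3B4 from these 8 libraries of other RBPs was 0.60 (log2), with an exact permutation p of 0.0833 and an adjusted p of 0.306. With the external background it was 0.40 and passed the threshold (adjusted exact permutation p = 0.0306), and without pairing by gene it was 1.59 (adjusted exact permutation p = 0.229). For the share of introns under 200 nt the difference from other RBPs was -4.79 points (exact permutation p = 0.667, adjusted p = 0.746), and it turned to 5.61 points with the external background. In this share RBFOX2 lay further below its own unmarked introns than SF3B4, by -17.9, -12.4 and -17.0 points. PRPF8 lay above its own in each replicate, and LIN28B in replicate 1 alone.

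The branch motif was more frequent in marked introns. CTNAC started 18 to 45 nt upstream of the exon in 33.9%, 24.8% and 24.6% of the introns marked in replicates 1, 2 and 3, against 20.4%, 16.9% and 16.8% of the unmarked introns of the same genes. The mean difference was 9.70 ± 3.25 percentage points (SD, n = 3), positive in each replicate and largest in replicate 1. In the libraries of other RBPs it ran from -8.82 to 5.91 points, so SF3B4 lay above all of them. These 8 libraries belong to PRPF8, RBFOX2 and LIN28B alone, and the permutation test takes libraries of 1 RBP as separate units. Their CC holds the SF3B4 reads, so the filter itself can lower their motif difference, and the size of this part was not tested. The difference between SF3B4 and the others, 12.3 points, had the smallest p that the 48 choices allow (exact permutation p = 0.0208), which did not pass after correction (adjusted p = 0.115). It passed with the external background (8.70 points, adjusted exact permutation p = 0.0391) and without the replicate block (12.3 points, adjusted exact permutation p = 0.0333). Against background introns not paired by gene the difference was a smaller 4.09 points (exact permutation p = 0.125, adjusted p = 0.344), while that of SF3B4 alone was 8.47 points.

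Read the other way, introns with CTNAC were marked more often than introns without it. In replicate 1, 6.61% of the introns with CTNAC were marked, 3.42% of those with TTNAC alone and 3.27% of those with neither. The same shares were 10.3%, 8.47% and 7.32% in replicate 2 and 8.35%, 6.76% and 6.09% in replicate 3. The order was the same in each replicate, while the step from TTNAC to neither was small in replicate 1. Position by position, the motif was most frequent in the marked introns of replicate 1 when it started 26 nt upstream of the exon, with 2.72% against 1.61% of unmarked introns. The values at this position were 1.62% against 1.11% in replicate 2 and 1.92% against 1.15% in replicate 3. The excess was not confined to the branch region, as marked introns also lay higher at most positions beyond 45 nt, up to 60 nt. At 50 nt the values were 0.421% against 0.241%, 0.417% against 0.233% and 0.324% against 0.201% in replicates 1, 2 and 3. The part of base composition in the motif difference was not tested.

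**Figure D3:**
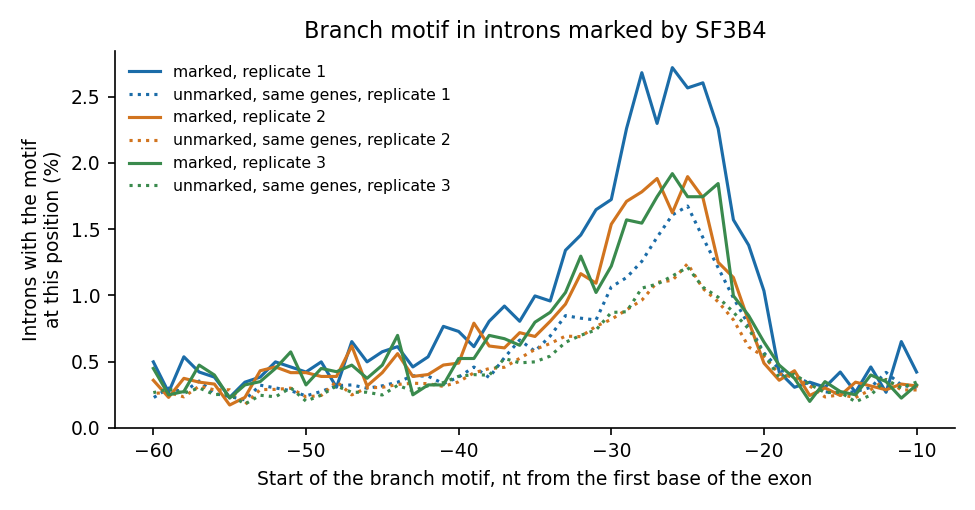
Share of introns in which the branch motif starts at a given position (y axis, percent; x axis, nt from the exon), for introns marked by SF3B4 (solid lines) and unmarked introns of the same genes (dotted lines) in each replicate. Marked introns lie above unmarked ones around 20 to 35 nt before the exon, up to 2.72% against 1.61% in replicate 1. At lower frequencies they also lie above at most positions further upstream.

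Other sequence features near the splice site differed less between marked and unmarked introns. Pyrimidines made up 73.4%, 73.3% and 73.0% of positions 4 to 23 upstream of the exon in marked introns and 73.3%, 73.0% and 72.9% in unmarked ones. This difference, 0.123 ± 0.118 percentage points, exceeded the mean of the other RBPs by 1.59 points (exact permutation p = 0.125, adjusted p = 0.344; 2.11 points and adjusted exact permutation p = 0.0285 with the external background). The nearest AG upstream of the splice site, which bounds where a branch site can lie, was 36.03, 38.2 and 38.8 nt from the exon in marked introns and 36.4, 37.1 and 36.7 nt in unmarked ones (difference from other RBPs -0.829 nt, exact permutation p = 0.708, adjusted p = 0.746). Further upstream the base composition differed: 40 nt before the exon, C made up 28.6%, 23.2% and 24.2% of marked and 22.4%, 19.6% and 19.6% of unmarked introns. Exons that other coding transcripts of the gene skip followed 11.5%, 12.05% and 13.2% of marked introns and 13.7%, 13.8% and 14.05% of unmarked ones. The difference from other RBPs was -7.13 points (exact permutation p = 0.229, adjusted p = 0.420).

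Peak centres moved with the branch motif. In introns whose CTNAC started 23 to 26 nt upstream of the exon, the median centre lay 22, 23 and 29 nt upstream in replicates 1, 2 and 3. Where it started 31 to 35 nt upstream, the median centre lay at 29, 31 and 36 nt, and for 36 to 45 nt it lay at 32, 34 and 38 nt. The shift was seen in all 3 replicates although their overall positions differed. Over the 897, 1748 and 994 peaks with a motif, Pearson's r between motif start and peak centre was 0.186, 0.192 and 0.242, a description across introns of a library that share its depth and its peak widths. Motifs at 18 to 22 nt had medians of 23, 24 and 28 nt, which did not continue the trend in replicates 1 and 2, and quartiles overlapped between neighbouring classes. Grouping introns by length gave medians of 27, 31 and 34 nt for lengths of 100 to under 200 nt and 28, 31 and 36 nt for those of 5000 nt or more, a smaller spread than between motif classes. Introns under 100 nt, where only the nearer part of the intron counts, had 25, 24.5 and 31.5 nt. Centres also moved with the nearest upstream AG. Their medians were 25, 27 and 32 nt where the AG lay 5 to 20 nt from the exon. Where it lay at 41 to 60 nt they were 28, 32 and 37 nt.

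**Figure D4:**
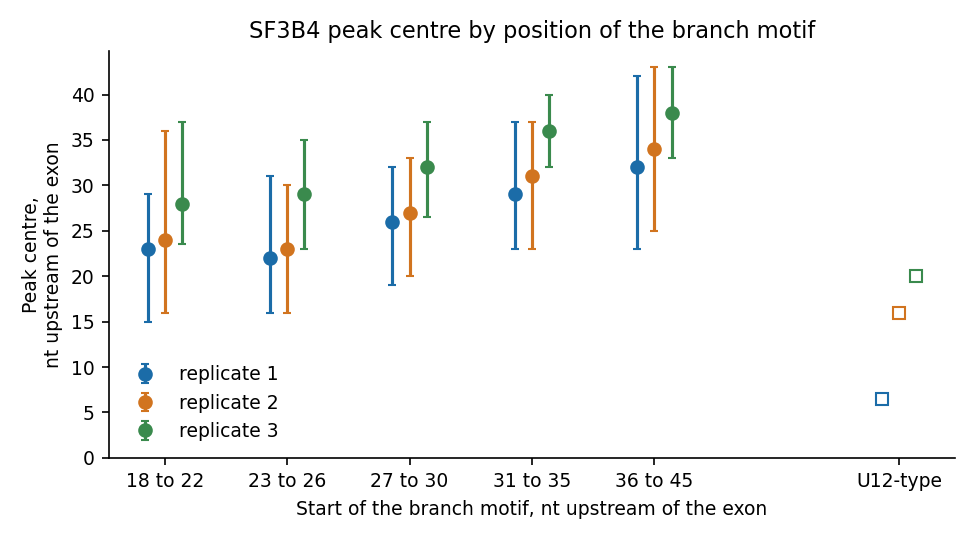
Median position of the SF3B4 peak centre (y axis, nt upstream of the exon) by the position at which the branch motif starts (x axis, nt upstream of the exon), for each replicate; bars are quartiles over peaks, and open squares are medians over U12-type introns. Centres lie further upstream where the motif does, up to 32, 34 and 38 nt, and nearest the exon in U12-type introns, at 6.5, 16 and 20 nt.

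U12-type introns were marked about as often as other introns, but closer to the exon. Of the U12-type introns in genes with a merged SF3B4 peak, 8 of 225 (3.56%, 95% exact binomial interval 1.55 to 6.89%) were marked in replicate 1, 31 of 317 (9.78%, 6.74 to 13.6%) in replicate 2 and 17 of 219 (7.76%, 4.59 to 12.1%) in replicate 3. For the other introns of these genes the shares were 3.97%, 8.04% and 6.62%, each within the interval of the U12-type share. PRPF8, at the 5′ ends of introns, marked 1 of 368 (0.272%, 0.0069 to 1.505%), 6 of 371 (1.62%, 0.596 to 3.49%) and 3 of 409 (0.733%, 0.151 to 2.13%) U12-type introns, against 7.81%, 11.8% and 7.34% of others. The median SF3B4 centre in U12-type introns lay 6.5 nt upstream of the exon in replicate 1, 16 nt in replicate 2 and 20 nt in replicate 3, where other introns had 27, 30 and 35 nt. At most 20 nt upstream were 100%, 67.7% and 52.9% of the U12-type introns and 31.2%, 22.4% and 5.96% of the others. The ranges overlapped, since U12-type centres reached 18 nt in replicate 1, 88 nt in replicate 2 and 40 nt in replicate 3.

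In all, 44 of the 557 U12-type introns of the annotation were marked in at least 1 replicate, 11 in at least 2 and 1 in all 3. TTAAC lay in the range given above in 24 of these 44 (54.5%) and in 8 of the 11, compared with 40.04% of all U12-type and 4.95% of all other introns. Its median start was 16.5 nt upstream of the exon in the 44 introns and 26 nt in other introns that hold it. The intron marked in all 3 was that of EIF3I, a subunit of the translation initiation factor eIF3, with 8, 6 and 6 reads, a log2 fold over the CC of 3.01, 5.80 and 3.14, and centres 10, 4 and 17 nt upstream. ZCCHC8, a subunit of the nuclear exosome targeting complex, was marked in replicates 1 and 2 with 4 and 5 reads, both centred at 18 nt, and it belongs to the AT-AC introns of the class. RNF121 was marked in the same 2 replicates with 5 and 6 reads at 8 and 14 nt. A further 7 of the 11 were in BAZ1B, NOL11, PPIL4, PSMA1, SLC66A1, TMEM41B and TMEM87A, and held 5 to 15 reads where marked; the site in PSMA1 lies within a 2nd annotated coding gene on the same strand.

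Peaks on small nuclear RNAs were examined after their values had been seen, and no test was made. The highest SF3B4 peak of all, in each replicate, lay on RNU12, the gene of U12 snRNA (chr22:42615245-42615393, plus strand, 149 nt). It held 5359, 6022 and 8372 reads, which was 1.94%, 1.24% and 4.45% of the reads in merged SF3B4 peaks. The highest share of any other RBP was that of EIF3G, with 1.45%, 1.04% and 0.928%, and the median of the other 9 was 0.508%, 0.291% and 0.579%, so SF3B4 came first in each tube, by a small margin in replicates 1 and 2. The log2 fold over the CC was 2.82, 2.91 and 3.67, below the limit of 3 in 2 of the 3 replicates, so that this peak was enriched in replicate 3 only. On RNU2-2P, a copy of the U2 snRNA gene (chr11:62841620-62841809, minus strand, 190 nt), the highest peak had 230, 261 and 359 reads, 0.0834%, 0.0539% and 0.191% of SF3B4 reads, against at most 0.0528%, 0.0190% and 0.0373% in another library. U2 snRNA has near-identical copies, so reads may have been split between them or set aside as repeats, and this value is uncertain.

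The parts of both RNAs that the highest peaks of the 3 replicates share are in capitals in the sequences (GRCh38, sense strand, written with T).
RNU12: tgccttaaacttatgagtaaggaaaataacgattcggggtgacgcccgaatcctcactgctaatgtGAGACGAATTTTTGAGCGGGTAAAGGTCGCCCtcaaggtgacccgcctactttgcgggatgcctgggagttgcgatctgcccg
RNU2-2P: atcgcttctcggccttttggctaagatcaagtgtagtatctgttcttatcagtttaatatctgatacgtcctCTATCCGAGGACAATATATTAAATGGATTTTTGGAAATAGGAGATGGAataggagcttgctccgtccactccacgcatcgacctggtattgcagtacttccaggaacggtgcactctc
These parts span positions 67 to 98 of U12 and 73 to 120 of U2, and their longest common run is ATTTTTG, of 7 bases. As background, the Sm ring of spliceosomal snRNPs binds a uridine-rich run of this kind. For RNU11, whose RNA pairs with the 5′ splice site of U12-type introns, SF3B4 had 0.481%, 0.364% and 0.287% of its reads and ranked 2nd, 3rd and 5th among the 10 libraries, where LIN28B was first. At RNU4ATAC, RNU6ATAC, RNU5E-1 and RN7SK, SF3B4 ranked between 6th and 8th in every replicate.

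**Figure D5:**
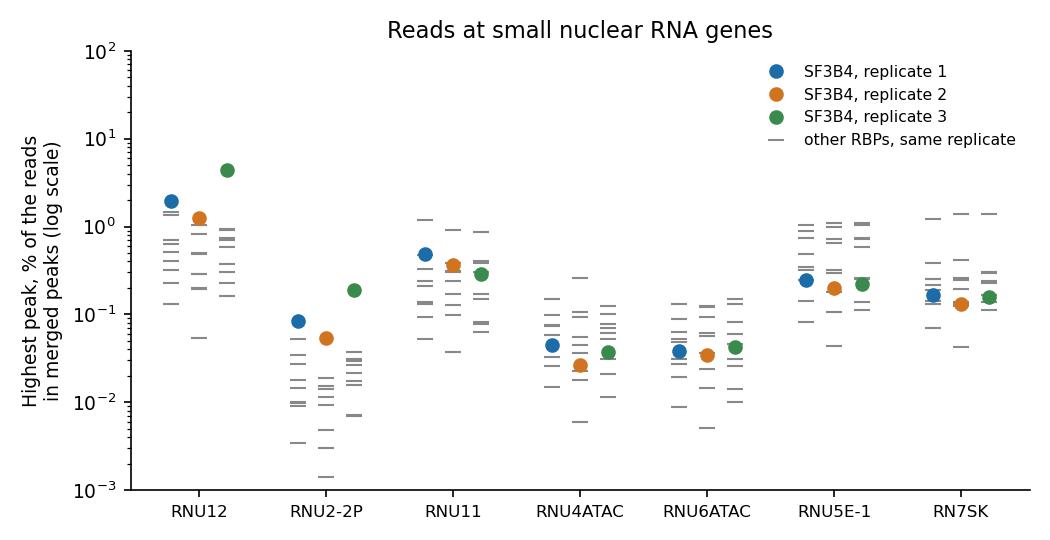
Reads of the highest merged peak on each small nuclear RNA gene as a share of the reads in merged peaks of the library (y axis, percent, log scale), for SF3B4 (coloured points, 1 per replicate) and the other RBPs of the same tube (grey dashes; libraries without a peak are not drawn). SF3B4 is the highest library at RNU12 (1.94%, 1.24% and 4.45%) and RNU2-2P, and lies among the other RBPs at the remaining genes.

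SF3B4 marked 10372 introns in at least 1 replicate, and 654 introns of 560 genes in all 3. These 654 introns were 24.9% of the list of replicate 1, 9.37% of that of replicate 2 and 16.3% of that of replicate 3, lists of unequal length. At the level of genes, 1027 genes had a marked intron in each replicate, 53.1%, 28.3% and 40.9% of the 3 lists. By the same count at 3′ splice sites RBFOX2 had 18 recurring introns, PRPF8 8, LIN28B 6 and EIF3G 1, and the other 5 RBPs had 0. As shares of their much shorter lists these were not lower for all: RBFOX2 had 24.7%, 12.7% and 24.7%, and LIN28B had 21.4%, 22.2% and 37.5%. Of the introns marked in replicate 1, 48.4% were marked in replicate 2 and 33.9% in replicate 3, and 64.2% and 43.5% held a merged SF3B4 peak there, enriched or not. Recurring introns had more reads, with a median of 7, 13.5 and 7 per intron in replicates 1, 2 and 3 against 4, 5 and 4 for introns marked in that replicate alone. CTNAC lay in 33.8% of the recurring introns and in 18.4% of the 7789 introns of the same genes that no replicate marked. Their median length was 1506.5 nt against 984 nt. First introns made up 9.02% of them and 5.48% of those unmarked introns. This count is not paired by gene, so genes with many introns weigh more among the unmarked, and its direction is opposite to that of the difference paired by gene above. Of the 654 introns, 622 lay between coding exons.

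Few genes had several recurring introns: 486 genes had 1, 63 had 2, 7 had 3, 2 had 4, and 1 each had 6 and 7. TFRC, the transferrin receptor through which erythroid cells take up iron, had 7 recurring introns of 18 (introns 6 and 11 to 16). Intron 12 held 29, 76 and 20 reads with a log2 fold over the CC of 6.61, 4.76 and 4.64, and intron 13 held 32, 91 and 24 reads with 4.33, 3.72 and 3.28. Introns 3, 4, 5, 10 and 18 of TFRC had no merged SF3B4 peak in any replicate, and introns 2, 7, 8, 9 and 17 were marked in 1 or 2 replicates. HNRNPH1, a splicing regulator that binds G-rich RNA, had 6 recurring introns of 13 (2, 3, 5, 9, 10 and 11), and intron 10, of 92 nt, held 18, 63 and 22 reads. Intron 5 of HNRNPH1 was centred at 56, 49 and 50 nt and intron 11 at 62, 59 and 55 nt, upstream of most others.

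HERC1, a giant ubiquitin ligase, had 4 recurring introns of 77, and VWDE had 4 of 28. Of the genes with 3, RHEB, the small GTPase that activates mTORC1, had introns 1, 3 and 5 of 7, and its marked introns together held 52, 81 and 50 reads. XPO1, the main export receptor for proteins leaving the nucleus, had introns 1, 3 and 20 of 24, and NUP155, a nuclear pore scaffold protein, had introns 9, 18 and 32 of 34. SREBF1, the sterol-regulated transcription factor, had introns 5, 12 and 15 of 18, USP48, a deubiquitinase, had 6, 11 and 14 of 26, ATP13A3, a P-type ATPase, had 2, 9 and 25 of 33, and GABRE, a GABA-A receptor subunit, had 1, 2 and 6 of 8. AGPS, CENPE, ORC2 and OSBPL9 completed the first 15 genes with 2 recurring introns each and mean log2 folds of 5.57, 5.45, 5.40 and 5.26.

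The recurring introns with the highest fold over the CC rested on modest numbers of reads. In RPS25, a protein of the small ribosomal subunit, intron 3 held 6, 17 and 8 reads against 1, 0 and 1 CC reads, and the mean log2 fold was 6.75 ± 0.73 (SD, n = 3). In VDAC2, a channel of the outer mitochondrial membrane, intron 7 held 7, 34 and 10 reads against 0, 3 and 1 CC reads (6.73 ± 0.60). SNRPA1, itself a protein of U2 snRNP, had 37, 65 and 21 reads in intron 6 against 5, 4 and 8 CC reads (6.29 ± 0.91), with the upstream position described above. SLC25A3, the mitochondrial phosphate carrier, had 38, 36 and 13 reads in intron 4 (6.12 ± 1.41). The remaining 6 of these 10, in AGPS, MASTL, MED23, NABP1, OSBPL9 and POLG2, held 3 to 30 reads and had means of 6.15 to 6.51. No other annotated gene on the same strand covered these 10 sites.

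The gene lists were read over members with a merged SF3B4 peak, beside all genes with such a peak, of which 38.2%, 52.4% and 56.2% had a marked intron in replicates 1, 2 and 3. A gene with more introns has more chances to hold a marked one, and the number of introns was not matched between lists and all genes. Of 19 intron-containing genes of SF3b and U2 snRNP, 9, 10 and 9 had a marked intron, which was 56.2%, 58.8% and 56.2% of the 16, 17 and 16 with a merged peak, near the share of all genes in replicates 2 and 3. DHX15, the helicase that takes spliceosomes apart, had 2 recurring introns of 13. SF3B3, PUF60, RBM17 and SNRPA1 had 1 each. Among U5 and B complex genes 5, 8 and 4 of 10 were marked, which was 62.5%, 88.9% and 50.0% of those with a merged peak. PRPF3 alone had a recurring intron. SR protein genes were marked in 5, 6 and 11 of 12 cases, which was 41.7%, 50.0% and 100% of those with a merged peak. Recurring introns lay in SRSF11 and TRA2A. For hnRNP genes the numbers were 10, 13 and 15 of 17, which was 58.8%, 76.5% and 93.8% of those with a merged peak, with recurring introns in 6 genes, led by HNRNPH1 and with 1 in each of the other 5, among them HNRNPA3, HNRNPDL and HNRNPL.

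Of 88 ribosomal protein genes, 28, 22 and 32 were marked, which was 36.4%, 27.2% and 43.2% of the 77, 81 and 74 with a merged peak, below the share of all such genes in each replicate. Ribosomal protein genes have 1 to 9 introns, and the part of intron number in this lower share was not tested. In this list 10 had a recurring intron, among them RPL10, RPL12, RPL13 and RPL15. Of 17 translation factor genes 7, 10 and 8 were marked, which was 43.8%, 62.5% and 53.3% of those with a merged peak. The share of all such genes was 38.2%, 52.4% and 56.2%. Recurring introns lay in EEF1A1, EEF1D and EIF3G. Of 16 chaperone genes 6, 9 and 13 were marked, with recurring introns in CCT3, CCT8 and HSPA9.

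SF3B4 and PRPF8 marked opposite ends of partly the same introns. Of the introns marked by SF3B4, 391, 1686 and 634 (14.9%, 24.2% and 15.8%) were also marked by PRPF8 at their 5′ end, which was 5.04%, 14.2% and 8.15% of the PRPF8 introns. PRPF8 marked 9.68%, 13.0% and 9.93% of the introns of the same genes that SF3B4 did not mark. Those introns were pooled and not paired by gene, so genes with many introns weigh more among them.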

How the data were processed

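ABC was run with 10 antibodies in 3 replicates of K562 cells. The authors trimmed reads (cutadapt 2.8), set aside reads of repetitive elements, aligned the rest to GRCh38 (STAR 2.7.6, per the labels), collapsed PCR duplicates, and ran CLIPper, whose p-value and display score were deposited per peak. Merged peaks were deposited with 2 values against an external background, −log10 P (at most 400) and log2 fold. Against the CC, the deposited values were the chi-squared statistic and p-value in replicates 1 and 2, where repeats had been taken out, but −log10 P and log2 fold in replicate 3. Groups came from the sample titles.

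The reads of a peak were taken from its name or from the whole-number ratio behind the log2 fold. The CC reads of replicates 1 and 2 were solved from the statistic and the pool share; the 10 shares summed to 100.0% in each replicate. Whole reads were found for 82.6%, 81.9% and 99.8% of enriched SF3B4 peaks, and the nearest whole number was used otherwise. Tested on simulated data made from 13155 SF3B4 peaks of replicate 3, 96.2% had the right direction, 95.2% the right reads, and all peaks above the fold limit were recovered. These were peaks with whole reads only, and their statistic was made with the same formula that was then solved. The test therefore does not cover the peaks of replicates 1 and 2 for which no whole reads were found. In replicates 1 and 2 the deposited p-value is that of a chi-squared test at all numbers of reads, which is liberal where they are few; an exact binomial P in all replicates was added as an alternative after seeing the data.

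Introns came from the canonical protein-coding transcripts of GENCODE release 44 (183943 introns of 18562 genes; the authors used release 35). The libraries held 188025 to 483995 reads in merged SF3B4 peaks, and peaks of 3 reads were the smallest, so shallow sites were missed. Libraries with under 20 enriched peaks or marked introns were left out of a measure. SF3B4 was set against the other RBPs by two-sided exact permutation of labels within replicates, since a replicate number marks 1 tube, with Benjamini-Hochberg correction over 11 tests at 0.05. Labels were drawn separately in each replicate, so libraries of the same RBP counted as separate units. With the RBP as the unit far fewer choices would remain, and the smallest possible p would be larger. The alternatives were stricter limits (P below 1e-05, fold above 16), the external background, no replicate block, each replicate left out, peaks within 30 nt of an adapter-like site left out, a window of 50 nt, any overlap, background introns not paired by gene, and a wider motif. Named items were the 15 genes with the most recurring introns, the 10 recurring introns with the highest mean fold away from adapter-like sites, U12-type introns marked in at least 2 replicates, up to 4 members of each gene list with the most recurring introns, and every recurring gene of SF3b and U2 snRNP; 1 gene is not reported here. The members and lists were chosen with earlier results of these data known. Python 3.11.15, numpy 2.4.6, pandas 2.3.3 and scipy 1.17.1 were used. HEK293T and singleplex libraries were not analysed here beyond their number of merged peaks.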

Additional observations from a re-analysis of the deposited data

How the results depend on the processing

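The share of SF3B4 peaks at 3′ splice sites kept its direction under every alternative and its side of the threshold under all but the loss of a replicate, where 100 choices cannot give an adjusted p under 0.05; leaving out a replicate gave differences of 69.9 to 75.5 points, but the external background gave 40.1. Stricter limits left 2379 enriched peaks per replicate on average, 160 recurring introns and 274 recurring genes, and the external background gave 13501 peaks and 1301 recurring introns. The exact binomial P left 2771, 7210 and 5232 enriched peaks and changed no call. With the external background, 4 differences from the other RBPs came to pass the threshold: peak distance (-44.4 nt), intron length (0.40, log2), branch motif (8.70 points) and pyrimidines (2.11 points), and 3 turned: first introns (2.69 points), introns under 200 nt (5.61 points) and the nearest upstream AG (2.46 nt). A window of 50 nt turned peak distance (6.25 nt) and first introns (0.54 points), any overlap turned peak distance (19.5 nt), and background introns not paired by gene turned the nearest AG (1.45 nt) and gave 4.09 points for the branch motif, which the stricter limits raised to 19.3. Since a window of 50 nt holds no centre further upstream, it limits the peak distances that can be compared. The causes were not tested. Without the replicate block the branch motif passed (12.3 points, adjusted exact permutation p = 0.0333), and no other call changed. Leaving out a replicate gave 4612 to 7299.5 peaks, 890 to 1751 recurring introns (1751 without replicate 1) and 1158 to 1836 recurring genes, and -1.72 to 0.053 nt for the nearest AG. Median peaks of 4 to 5 reads limit which single introns can recur.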
